A study of Homo sapiens with 10 samples.

Results

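The control line of this study is U2OS, a human osteosarcoma cell line with working p53, carrying a lentiviral negative control shRNA under puromycin at 1 µg/ml. Its RNA was sequenced without drug (1 library) and after 10 µM nutlin-3a for 24 h (3 libraries), which makes 4 of the 10 libraries of the series. The other 6 come from 3 U2OS lines with shRNAs against ARVCF, a catenin of cell junctions, under the same selection, each untreated and after the same nutlin-3a treatment. The series asks how ARVCF changes transcription induced by p53, and the control line gives the response without knockdown. The labels speak of single clones, so the 4 libraries stand for 1 line. Nothing in the labels says that the 3 treated libraries came from separate cultures, so their spread may be technical. The p-values rest on a spread pooled over these libraries and the shARVCF groups, where each library of a group is a different line. They do not measure the spread between cultures of the control line. Treated replicates 2 and 3 carry later library numbers than the other 8 libraries, and only treated replicate 1 shares the number series of the untreated library. The untreated state rests on 1 library with no spread of its own.

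Nutlin-3a fills the pocket of MDM2 that holds p53. MDM2 is the ubiquitin ligase that marks p53 for destruction, so the drug lets p53 build up without DNA damage. p53 then binds response elements and turns on genes of arrest, death, repair and metabolism, among them CDKN1A, whose product p21 inhibits cyclin-dependent kinases. With these kinases inhibited, RB-family proteins hold E2F genes and the DREAM complex holds late cell cycle genes silent, and MDM2, itself a p53 target, closes a negative feedback loop.

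Of 26040 genes in the deposited table, 13980 had a value of at least 10 scaled fragments in 3 or more of the 4 control-line libraries and were tested. Scaled fragments are the authors' estimated fragments per gene after scaling between libraries. Just inside this limit lay LOC101927476, at 14.67 untreated and 16.92, 8.542 and 10.01 treated, and DKK2, at 15.53 untreated and 10.03, 10.3 and 5.18 treated. Just outside lay LOC284412 (9.137, then 9.986, 41.21 and 11.02) and ONECUT3 (6.513, then 13.18, 15.2 and 9.99). By limma with Benjamini-Hochberg adjustment over all tested genes, 8181 genes (58.5%) were called at an adjusted p of 0.05, 3761 higher (26.9%) and 4420 lower (31.6%) with nutlin-3a. In every called gene the 3 treated libraries lay on 1 side of the untreated one. Changes are differences of log2(value + 1), written as log2, with the standard error (SE) of the fit, and they understate changes of genes near 0.

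Larger changes leaned towards falls. At least 2-fold changes were called in 1921 genes that rose and 2689 that fell, at least 8-fold changes in 199 and 303, and at least 32-fold changes in 32 and 90. Of the 90 genes that fell 32-fold or more, 64 stood on cell cycle lists used below, counting the senescence-linked and histone lists. Of the 303 that fell 8-fold or more, 125 did. The cell cycle lists held 194 of the 13980 tested genes, and the senescence-linked and histone lists 11 each. Of the 199 that rose 8-fold or more, 10 stood on the p53 target lists, which held 116 of the 13980 tested genes. The filter itself treats both directions unequally, because a gene silenced by the drug can miss the limit in all 3 treated libraries while a gene switched on cannot. It kept 322 genes below 10 in the untreated library and left out 126 genes at 50 or more there, which are described separately.

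The 3 treated libraries resembled each other closely. The median SD among them was 0.161 on the log2 scale, and 806 genes (5.77%) had a range of over 1 log2. Treated replicate 1 stood apart from both later libraries by over 1 log2 in 102 genes, 23 of them called. Scaled totals were 18170593 fragments untreated and 19903778, 19749179 and 19519982 treated. One property set the treated control libraries apart from the rest. Their levels, taken against the mean of the shARVCF libraries, fell with spliced transcript length (Spearman's rho -0.56, -0.50 and -0.52 across 13807 genes, which are not independent replicates), while the untreated control library (rho 0.01) and each of the 6 shARVCF libraries (between -0.09 and 0.05) showed little or no such trend. In the nutlin-3a response of the control line, the shortest of 5 equal groups of genes (112 to 1933 nt) had a median of log2 0.63, with 50.4% called higher and 8.69% lower. In the longest group (5758 to 91667 nt) the median was -0.80, with 9.34% higher and 61.0% lower. The source of this trend was not tested, and in this line the trend and the drug cannot be told apart. Values are therefore also given after each library's trend with length and GC was removed, written as "with the trend removed", where a printed log2 change moves by over 1.5-fold or a call ends. With the trend removed 21.7% of 13807 genes were called higher and 27.6% lower. Of the 8181 genes called as deposited, 5058 were then called in the same direction and 143 in the opposite direction. Of 168 called genes named here that have a length, 76 moved by over 1.5-fold, 12 were no longer called and 4 turned in sign. With treated replicate 1 as the only treated control library, 7096 genes were called; that fit sets 1 library against 1, and all of its spread comes from the shARVCF groups.

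**Figure D1:**
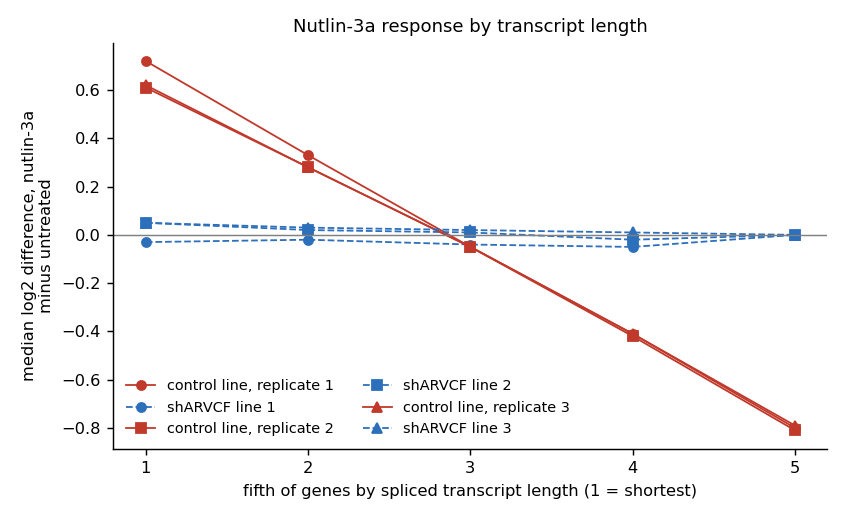
Median log2 difference between nutlin-3a and untreated (vertical axis) in 5 equal groups of genes by spliced transcript length (horizontal axis), for each treated control library against the 1 untreated library (solid red) and each shARVCF line against itself (dashed blue). The 3 sets of control-line points fall from between 0.61 and 0.72 to about -0.80, while the shARVCF medians lie between -0.05 and 0.05.

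MDM2 and CDKN1A, the standard readouts of nutlin-3a, both rose in the control line. MDM2 (hg38 chromosome 12, 68808176 to 68850686, plus strand, 11 exons in GENCODE 29) stood at 2244 scaled fragments untreated and at 11200, 9497 and 10730 treated, a 4.66-fold rise (log2 2.22, SE 0.19, adjusted p = 9.77e-07). MDM2 has a long annotated transcript, and its change was log2 3.16 with the length and GC trend removed (adjusted p = 1.41e-07). CDKN1A (chromosome 6, 36676460 to 36687339, plus strand, 3 exons) went from 3999 to 33480, 34780 and 27850, a 7.97-fold rise (log2 2.99, SE 0.24, adjusted p = 1.09e-06), and stood at log2 2.35 with the trend removed. ARVCF (chromosome 22, 19969896 to 20016808, minus strand), the gene knocked down in the other lines, rose from 617.7 to 2928, 2571 and 2376 in this control line (4.23-fold, log2 2.08, SE 0.15, adjusted p = 2.27e-07). None of these 3 genes had a treated library on the untreated side.

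The p53 target genes were split by role into 6 lists. Together they held 129 genes, all in the table, of which 116 passed the filter. Of these, 82 rose (70.7%, against 26.9% of all tested genes), 17 fell (14.7%, against 31.6%) and 17 were not called, with a median of log2 1.28 beside -0.05 over all tested genes. After removal of the length and GC trend 85 rose and 12 fell, with a median of 1.34. Only 2 of the 116 were below 10 untreated. The lists were drawn from known targets with earlier results of these data in view, so the counts describe them and test nothing.

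Feedback genes of p53 moved both ways. Of 11 tested, 5 rose (45.5%, against 26.9% of all tested genes) and 4 fell (36.4%, against 31.6%), with a median of log2 0.38. Besides MDM2, the rises were those of ZMAT3, an RNA-binding protein, from 1892 to 5564, 5023 and 5285 (log2 1.48), TP53INP1, which acts in autophagy and stress, from 1042 to 2398, 2354 and 2639 (1.24), and PPM1D, the phosphatase WIP1 that switches off p53 signalling, from 2388 to 3822, 3882 and 4259 (0.74). MDM4, the MDM2 partner that binds p53, was slightly higher at 799.4, 797.2 and 821.4 against 585.5 (log2 0.46, SE 0.17, adjusted p = 0.0372), but was not called without treated replicate 1, 2 or 3 (adjusted p = 0.0552, 0.0593 and 0.0702). Values of the treated libraries sat close together in all of these. With the trend removed ZMAT3, TP53INP1 and MDM4 stood at log2 2.48, 2.05 and 1.37. TP73, a p53 paralog that E2F1 can also induce, fell from 443.8 to 22.53, 44.08 and 25.31 (log2 -3.87, SE 0.35, adjusted p = 1.6e-06). The ubiquitin ligase gene RCHY1 fell by 0.91 on the log2 scale, but stood at -0.15 with the trend removed (adjusted p = 0.677).

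Arrest genes had the highest median of the p53 lists. Of 11 tested, 8 rose and 1 fell (median log2 2.53). GADD45A, a growth arrest and DNA damage protein, went from 548.6 to 6590, 6351 and 7665 (log2 3.64, SE 0.18, adjusted p = 1.61e-08). SFN, the 14-3-3 sigma protein that keeps cyclin B and CDK1 out of the nucleus, went from 5659 to 41840, 40800 and 40920 (log2 2.86). BTG2, an antiproliferative factor, rose from 1166 to 6482, 7105 and 6681 (2.53). Each treated library of these genes held more than 5 times the untreated level. GADD45A and SFN stood at 3.00 and 1.79 with the trend removed. SERTAD1 rose by log2 2.42. CDKN1B, which encodes the CDK inhibitor p27, went the other way, from 1173 to 299.8, 235.7 and 252.5 (log2 -2.16, SE 0.22, adjusted p = 5.04e-06), and with the trend removed it stood at -2.25.

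Cell death targets mostly rose. Of 21 tested, 14 rose and 2 fell (median log2 1.47). FAS, the death receptor, went from 421.4 to 2616, 2248 and 2242 (log2 2.48). BBC3, the BH3-only protein PUMA, rose from 364.8 to 2756, 2032 and 2230 (2.67), and BAX, the pore-forming effector, from 1423 to 5790, 4908 and 5257 (1.90). With the length and GC trend removed BBC3 stood at 1.69 and BAX at 0.93. TP53I3, an oxidoreductase, had the smallest adjusted p of the list, going from 1641 to 21060, 21280 and 22440 (log2 3.72, SE 0.13, adjusted p = 1.81e-09), and stood at 2.97 with the trend removed. PHLDA3, an inhibitor of AKT signalling, rose by log2 2.63. The survival gene BCL2L1, whose main product BCL-XL counters BAX, rose as well, from 3986 to 17610, 18180 and 17050 (2.14). APAF1, the scaffold of the apoptosome, read 301, 227.1 and 270.9 against 523.3 (log2 -0.98, adjusted p = 0.00251), but -0.13 with the trend removed (adjusted p = 0.672). STEAP3, a metalloreductase, fell by 0.62 on the log2 scale and by 0.70 with the trend removed.

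DNA repair targets split evenly, with 5 of 11 higher and 5 lower (45.5% each, against 26.9% and 31.6% of all tested genes). Their median was log2 0.28, and -0.13 with the trend removed. Nucleotide excision repair genes rose: DDB2, a damage sensor, went from 1567 to 4608, 5229 and 5276 (log2 1.68), and XPC from 1881 to 3066, 3112 and 3323 (0.75). RRM2B, the p53-induced ribonucleotide reductase subunit, rose from 2629 to 6223, 5935 and 6930 (1.27). The translesion polymerase gene POLH rose by log2 0.95. PMS2, of mismatch repair, fell from 834.3 to 375, 368.3 and 472.7 (log2 -1.05). FANCC, of the Fanconi core complex, fell by 1.95 on the log2 scale. REV3L, the catalytic subunit of polymerase zeta, fell by 1.38, but stood at -0.38 with the trend removed (adjusted p = 0.0748). PMS2 and FANCC stood at -1.02 and -1.71 with the trend removed, DDB2 at 1.04 and RRM2B at 2.09.

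Metabolic targets rose in 15 of 23 cases and fell in 4 (median log2 1.07). FDXR, the mitochondrial ferredoxin reductase, went from 1351 to 16460, 14890 and 14250 (log2 3.49, and 2.60 with the trend removed). GLS2, the p53-induced glutaminase, was low without drug, at 23.76, and read 738.4, 749.5 and 700.6 with it (log2 4.88, SE 0.32, adjusted p = 1.14e-07). FUCA1, a lysosomal fucosidase, rose from 519 to 4138, 3565 and 3770 (2.88). In these genes the lowest treated library was over 6 times the untreated one. TIGAR, a fructose bisphosphatase, rose by log2 2.15, SESN2, a sestrin that restrains mTORC1, by 2.42 and DRAM1, a lysosomal autophagy protein, by 2.06. SLC7A11, the cystine transporter that p53 is known to repress, fell from 1405 to 190.5, 166.1 and 202 (log2 -2.91, SE 0.21, adjusted p = 2.67e-07), and stood at -1.79 with the trend removed. LPIN1, a phosphatidate phosphatase, fell by 1.18 on the log2 scale. SESN3 and ULK2 were called lower at log2 -1.79 and -1.16, but with the trend removed they stood at -0.72 (adjusted p = 0.226) and -0.56 (adjusted p = 0.156).

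In a further list of 40 tested targets with other roles, 36 rose and 1 fell (median log2 1.73). PADI4, an enzyme that converts arginine to citrulline in histones and other proteins, was among the largest rises in the table. It read 14.62 untreated and 1219, 1263 and 1091 treated (log2 6.25, SE 0.33, adjusted p = 2.16e-08). CD82, a tetraspanin that limits metastasis, went from 512.6 to 4833, 5263 and 4890 (3.28), and the noncoding RNA TP53TG1 from 110.6 to 893.4, 748.2 and 871.5 (2.91). CYFIP2, of the WAVE complex, rose by log2 2.18, NADSYN1, an NAD synthase, by 2.44 and TM7SF3 by 1.74. All 3 treated libraries stood above the untreated one for 37 of the 40 genes. PADI4, CD82 and TP53TG1 stood at 5.64, 2.61 and 2.11 with the trend removed. NOTCH1, the receptor, was the single fall, from 1372 to 623.5, 781.7 and 607.3 (log2 -1.04, adjusted p = 0.00063).

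**Figure D2:**
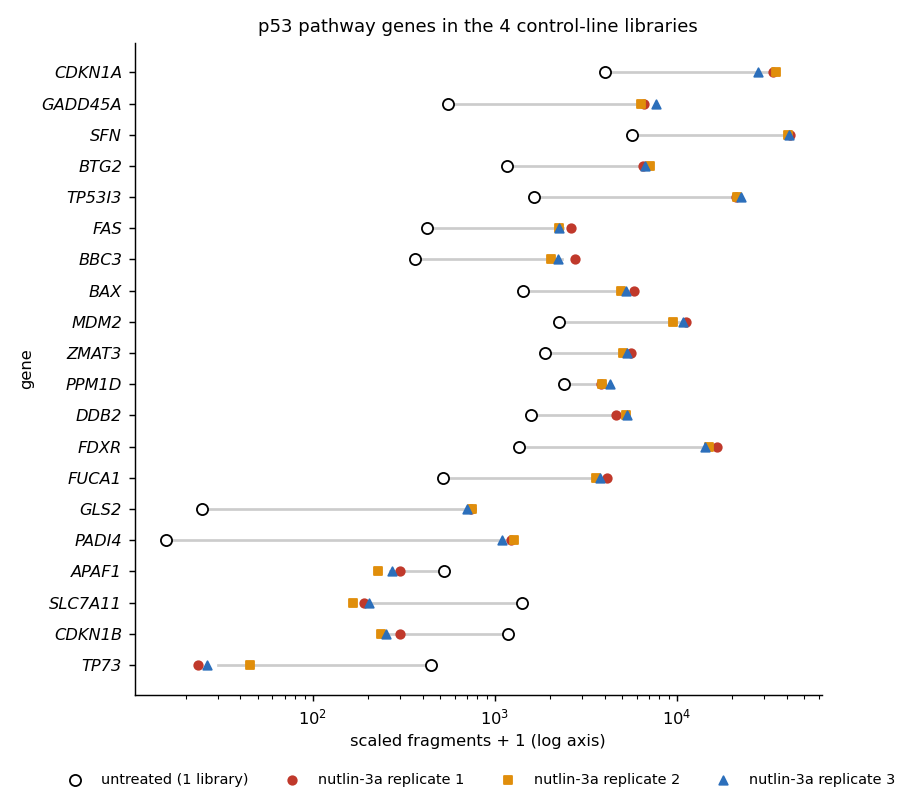
Scaled fragments plus 1 (horizontal log axis) of 20 p53 pathway genes (vertical axis) in the untreated control library (open circle) and the 3 nutlin-3a libraries (filled red circle, orange square and blue triangle), with a grey line from the untreated value to the geometric mean of the treated ones. The treated points lie to the right for genes such as CDKN1A, TP53I3 and PADI4, and to the left for APAF1, SLC7A11, CDKN1B and TP73.

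The largest rises in the table came from genes almost silent without drug. The rule for named genes took the 10 with the highest log2 change among the called genes whose mean reached 50. LCE1C, LCE1F and LCE1B encode late cornified envelope proteins of the epidermis. LCE1C was listed at 0 untreated and at 692.9, 691.6 and 541.3 treated, LCE1F at 0.9137 and then 348, 328.4 and 294, and LCE1B at 6.396 and then 707.9, 627.2 and 652.7. They are close paralogs, so the split of fragments among them is uncertain. TREM2, a lipid-sensing receptor best known from microglia and other myeloid cells, went from 5.482 to 3080, 2243 and 2230 (log2 8.59, SE 0.87, adjusted p = 8.18e-05; 7.57 with the trend removed). With PADI4 these genes were high in all 3 treated libraries and close to silent in the untreated one. Except PADI4, the genes named in this paragraph were below 10 untreated and passed the filter through the treated libraries, where they had to be higher. The same holds for C9orf69, IPO11-LRRC70 and PGBD3 below. KIAA0408 read 0.03049 untreated and 143.1, 129.3 and 139.5 treated (adjusted p = 0.00736). MGC72080 was less even, at 0.03843 untreated and 38.01, 93.62 and 101.5 treated (adjusted p = 0.00774).

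A few of the highest changes fall in loci that share reads with a neighbour or an overlapping gene. C9orf69 read 0.2617 untreated, but its treated libraries ran from 58.22 through 238.1 to 867.5, with replicate 1 the highest, and it was not called when only the 4 control-line libraries were fitted (adjusted p = 0.0911). IPO11-LRRC70, a read-through of a pair of genes, was listed near 0 untreated and at 193.6, 118.1 and 193.9 treated. PGBD3, a gene derived from a transposase and nested in ERCC6, went from 0.3627 to 154.9, 188.8 and 172.4. The fusion entry ERCC6-PGBD3, named after its values were seen, went the opposite way, from 235.6 to 0.004646, 0.0003633 and 0.000439. How fragments are divided among such overlapping entries is estimated, so the values of IPO11-LRRC70 and PGBD3 are uncertain.

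TREM2 is a marker of myeloid blood cells, so the list of blood cell markers was read beside it. Of 15 markers, 10 stayed below 10 scaled fragments in all 4 libraries, among them PTPRC (CD45; 5.482 untreated, 1.003, 0 and 5.18 treated), CD14 and TYROBP, the signalling partner of TREM2 (0 untreated, 0, 2.576 and 2.59 treated). The summed level of the list was 141.1 untreated and 3329, 2631 and 2585 treated, and without TREM2 it was 135.6 untreated and 249, 387.5 and 354.8 treated. CD68, a lysosomal protein, made up most of that remainder, at 79.23 untreated and 182.9, 314.9 and 296.5 treated. Besides TREM2, ITGAM, an integrin subunit (CD11b) of myeloid cells, was called higher, at 34.07, 34.77 and 22.01 against 8.224 (log2 1.73, SE 0.59, adjusted p = 0.0228). It passed the filter through the treated libraries, and was not called without treated replicate 1 or 2 (adjusted p = 0.0544 and 0.0538). Endothelial markers summed to 166.3 untreated and 67.18, 72.13 and 53.04 treated. Osteoblast markers, read to check the labelled osteosarcoma origin, summed to 104000 untreated and 113800, 131100 and 120900 treated, led by COL1A1 (57960 untreated) and SPARC (43830), while IBSP was at 0 and SP7, BGLAP and DLX5 stayed below 10. Among them ALPL, alkaline phosphatase, rose from 176.4 to 1385, 1502 and 1265 (log2 2.96, then 2.37 with the trend removed), and RUNX2, a transcription factor of the bone lineage, fell, at log2 -1.61 and then -0.93.

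Keratin and cornified envelope genes rose beyond the LCE1 cluster. Of 16 tested, 12 rose and 2 fell (median log2 2.45), but 7 of the 16 were below 10 untreated and passed the filter through the treated libraries, where they had to be higher. KRT17, a keratin of injured and basal epithelium, was well expressed in both states and went from 15440 to 86420, 93870 and 88310 (log2 2.54, SE 0.17, adjusted p = 1.74e-07; 1.59 with the trend removed). KRT15 went from 22.84 to 173.5, 177.7 and 202, and IVL, which encodes involucrin, from 3.655 to 48.13, 103 and 77.7. Not every epithelial gene followed: KRT14, the basal keratin, fell from 490.8 to 122.3, 130.1 and 133.1 (log2 -1.93, then -2.84, adjusted p = 0.00476 before removal), and EPCAM, an epithelial adhesion molecule, from 142.5 to 61.17, 50.23 and 73.81 (-1.21).

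The cell cycle machinery fell almost as a whole. Its 8 lists, from RB and E2F regulators to kinesins, held 217 genes, of which 194 passed the filter. Of these, 182 fell (93.8%, against 31.6% of all tested genes), 3 rose (1.55%, against 26.9%) and 9 were not called, with a median of log2 -4.01. Their median was -3.90, -3.90 and -3.91 in treated libraries 1, 2 and 3 taken singly, and 178 fell with the length and GC trend removed. Another 22 list members were dropped by the filter but reached 10 in at least 1 control-line library. All 22 were called lower in the wider fit described below. A member at 10 or more untreated is dropped only with 2 or more treated libraries below 10, so this direction was largely set by the choice. The genes of these lists made up 2.64% of all scaled fragments untreated and 0.474%, 0.447% and 0.458% treated. In bulk RNA, fewer cells in cycle and less RNA per cell cannot be told apart.

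Among the regulators, 16 of 20 fell and 1 rose (median log2 -1.94). FOXM1, the transcription factor of mitotic genes, went from 10400 to 229.8, 220.2 and 285.7 (log2 -5.41, SE 0.26, adjusted p = 3.9e-08). LIN9, LIN54 and LIN52, subunits of the MuvB core that DREAM and the mitotic activator complex share, fell to log2 changes of -4.94, -3.27 and -2.63. RBL1, the pocket protein p107, fell by 4.26. LIN54 and RBL1 stood at -2.40 and -3.46 with the trend removed. RB1 also fell, from 1430 to 349, 289.8 and 300.4 (log2 -2.19, and -1.42 with the trend removed), with no overlap of the states. LIN37, another MuvB subunit with a short transcript, was called higher (137 against 356.8, 341.3 and 310.2, log2 1.29), but not with the trend removed (0.24, adjusted p = 0.337).

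Most cyclins and their kinases fell. Of 18 tested, 14 fell and 2 rose (median log2 -2.30). CCNA2, the cyclin of S phase and G2, went from 2926 to 77.26, 85.94 and 69.72 (log2 -5.22), CCNB1, the mitotic cyclin, from 5570 to 289.4, 195.8 and 208.5 (-4.61), and CDK1, its kinase, from 1989 to 46.13, 47.65 and 50.5 (-5.34). CCNB2, CCNF and CDK2 fell too, at log2 -4.23, -3.51 and -2.19. The D-type cyclins CCND2 and CCND1 of G1 stood apart from them, while CCND3, also tested, was not called higher. CCND2 rose from 3139 to 9484, 9088 and 9174 (log2 1.56, SE 0.11, adjusted p = 2.41e-07; 2.23 with the trend removed), and CCND1 was slightly higher at 8810, 9729 and 9428 against 6891 (log2 0.43, SE 0.12, adjusted p = 0.00678).

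DNA replication genes fell in 53 of 55 cases, and none rose (median log2 -3.03). POLE, the catalytic subunit of the leading strand polymerase, went from 2670 to 109.7, 102.2 and 94.32 (log2 -4.70, SE 0.17, adjusted p = 3.4e-09). The helicase subunits MCM5 and MCM7 fell from 4338 to 524.4, 548.6 and 542.6 (-3.01) and from 4723 to 918.2, 866.7 and 893.2 (-2.40). MCM10, which helps to activate that helicase, was almost silenced, at 14.04, 2.576 and 11.65 against 1589 (log2 -7.50, SE 0.76). The checkpoint scaffold TOPBP1 fell by 3.03 on the log2 scale, and UHRF1 and DNMT1, which copy DNA methylation to new strands, stood at -3.58 and -2.83. For repair by homologous recombination and the Fanconi pathway, 15 of 15 tested genes fell (median -4.72). BRCA1 went from 1886 to 28.08, 42.5 and 49.21 (log2 -5.56), BRIP1, its partner helicase, from 1712 to 18.05, 19.32 and 7.77 (-6.83), and FANCI from 3190 to 137.5, 131.8 and 133.8 (-4.56). RAD54L, BARD1 and FANCG stood at -5.67, -4.40 and -2.55. Without the trend TOPBP1, BRCA1, BRIP1 and BARD1 stood at -2.28, -4.71, -5.92 and -3.56.

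Mitosis genes fell deeply. Across centromere, spindle, kinesin and condensin lists, 84 of 86 tested genes fell and none rose (median log2 -4.70). At the kinetochore, where 29 of 30 fell, CENPF went from 11140 to 111.3, 100.5 and 117.8 (log2 -6.65, SE 0.19, adjusted p = 8.53e-10). BUB1B, the checkpoint protein BUBR1, had the lowest log2 change of the named genes that passed the filter, from 2591 to 13.59, 7.727 and 11.65 (-7.79, SE 0.31, adjusted p = 5.69e-09). CENPE, the kinetochore motor, went from 2966 to 13.04, 14.17 and 12.95 (-7.69). BUB1, of the checkpoint, and HJURP, of centromere assembly, stood at log2 -6.94 and -6.79. No treated library of CENPE, CENPF or BUB1B came near the untreated level, and CENPE and CENPF stood at -6.58 and -5.69 with the trend removed.

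In the spindle and cytokinesis list 32 of 33 fell (median -5.42). ASPM, a spindle pole protein, went from 2841 to 12.55, 12.88 and 11.65 (log2 -7.73), DLGAP5, which stabilises kinetochore fibres, from 5330 to 30.75, 29.62 and 36.23 (-7.33), and ESPL1, the protease separase, from 2569 to 16.04, 18.03 and 14.24 (-7.24). ANLN, of the cleavage furrow, went from 9599 to 132.4, 133.9 and 123 (-6.20). CEP55 and BIRC5 (survivin) stood at -6.27 and -5.62. All 10 tested kinesins fell (median -6.14), among them KIF20A, from 3802 to 31.09, 25.76 and 15.53 (-7.30), KIF18B, from 2567 to 19.07, 19.31 and 10.75 (-7.25), and KIF23, from 4556 to 108.3, 119.8 and 134.7 (-5.23). CKAP2L, a spindle protein, fell from 2906 to 22.06, 15.45 and 22.01 (-7.14). Condensin and cohesin genes fell in 13 of 13 cases (median -2.96), with SMC2 and NCAPG2 of condensin at -4.25 and -4.89 and the cohesin subunits SMC1A and RAD21 at -2.60 and -2.96. With the trend removed ASPM, ANLN and CKAP2L stood at -6.64, -5.51 and -6.51, and SMC2, NCAPG2 and SMC1A at -3.34, -4.19 and -1.87.

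**Figure D3:**
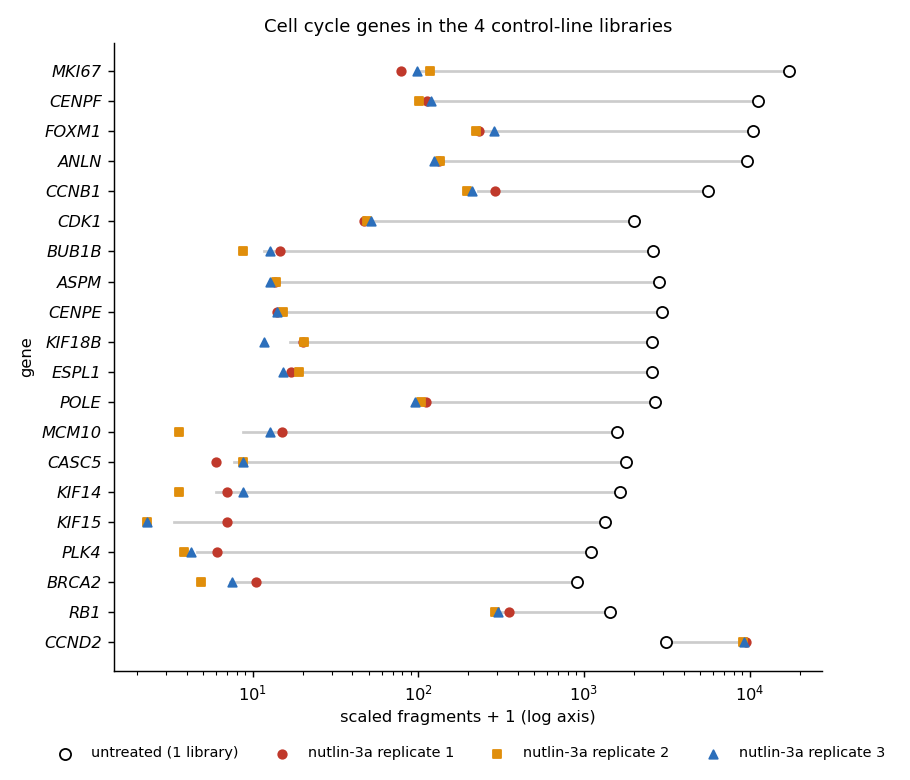
Scaled fragments plus 1 (horizontal log axis) of 20 cell cycle genes (vertical axis) in the untreated control library (open circle) and the 3 nutlin-3a libraries (filled symbols), with a grey line from the untreated value to the geometric mean of the treated ones. Only CCND2 has its treated points to the right of the untreated one, and BUB1B, MCM10, KIF15 and PLK4 fall to values of 14.04 or less in each treated library.

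Promoter sequence was read beside these falls, because late cell cycle genes are known for the CHR, an element bound by MuvB complexes next to CCAAT boxes, and replication genes for E2F sites. RefSeq windows of 300 bases (250 before to 50 after the start, GRCh38.p14) were found for 10471 of the 13980 tested genes. The letters TTTGAA (CHR), CCAAT and TTCCCGC (E2F) were searched on both strands, counting overlaps. The list sets here also took members outside the filter that reached 10 in at least 1 control-line library, which the tested genes leave out. The mitosis set thus held 100 genes, against 86 tested. Of 79 matched mitosis genes 58.2% held the CHR letters, against 9.7% of the tested genes with a window, and 39.2% held CHR and CCAAT letters, against 4.0%. Of 47 matched replication genes 4.3% held the CHR letters and 42.6% the E2F letters, and of 17 Fanconi and recombination genes 52.9% held the E2F letters, against 10.2% of the tested genes. Over all 27305 windows in the table the shares were 15.4% for CHR, 35.7% for CCAAT and 6.6% for E2F. A pair of p53 half-sites up to 13 bases apart, searched by its usual consensus, lay in none of 93 matched p53 target windows and in 3 of the 10471. The search allowed no mismatch and found such a pair in only 8 of all 27305 windows. A match this rare in any window cannot tell whether the p53 targets hold p53 sites. A match is a description of these letters and not a binding site.

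The following stretches run 5′ to 3′ on the gene's strand and end before the annotated start. CHR and CCAAT letters on either strand are in capitals. The 3 mitosis genes and the cyclin-dependent kinase were picked, among named genes that fell, because they hold both.
ASPM, chr1:197146670-197146848, minus strand: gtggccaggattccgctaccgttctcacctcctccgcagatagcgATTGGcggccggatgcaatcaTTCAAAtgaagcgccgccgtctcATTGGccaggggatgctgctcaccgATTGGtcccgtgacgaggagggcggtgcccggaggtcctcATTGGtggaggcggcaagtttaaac
DLGAP5, chr14:55191586-55191768, minus strand: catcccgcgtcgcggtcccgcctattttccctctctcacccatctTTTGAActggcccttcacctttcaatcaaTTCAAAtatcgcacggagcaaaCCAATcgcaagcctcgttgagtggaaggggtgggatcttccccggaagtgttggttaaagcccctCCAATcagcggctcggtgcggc
ESPL1, chr12:53268206-53268298, plus strand: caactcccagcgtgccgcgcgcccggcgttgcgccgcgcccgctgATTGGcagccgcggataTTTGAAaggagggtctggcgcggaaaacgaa
CDK1, chr10:60778125-60778230, plus strand: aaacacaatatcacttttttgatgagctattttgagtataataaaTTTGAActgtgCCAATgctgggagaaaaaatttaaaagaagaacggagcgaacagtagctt
That both sets of letters lie in each stretch was set by this choice. ASPM holds several copies of CCAAT, and DLGAP5 more than 1 copy of both.

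For comparison, these stretches come from a recombination gene and a replication gene that fell, picked because they hold the E2F letters. The letters are in capitals on either strand.
RAD54L, chr1:46247594-46247687, plus strand: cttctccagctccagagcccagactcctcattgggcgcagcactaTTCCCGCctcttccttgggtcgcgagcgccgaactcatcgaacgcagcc
UHRF1, chr19:4909352-4909500, plus strand: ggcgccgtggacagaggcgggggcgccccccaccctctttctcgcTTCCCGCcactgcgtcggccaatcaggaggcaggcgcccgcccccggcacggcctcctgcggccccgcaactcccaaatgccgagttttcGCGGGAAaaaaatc
UHRF1 holds the letters on both strands, and RAD54L once.

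Genes that the drug took below the filter were fitted with all genes of at least 10 in at least 1 control-line library. In that fit of 15296 genes, 24.8% were called higher and 31.3% lower. Of the 126 genes at 50 or more untreated that the filter had left out, 116 were called lower and 0 higher, 124 were lower in all 3 treated libraries, and 74 read below 10 in each of them; leaving the filter already required 2 or more treated libraries below 10, so the direction was set by the choice. The highest untreated levels among them belonged mostly to mitosis genes. CASC5, the kinetochore scaffold KNL1, went from 1784 to 5.014, 7.727 and 7.77, KIF14 from 1636 to 6.016, 2.576 and 7.77, and KIF15 from 1328 to 6.016, 1.288 and 1.295. PLK4, the kinase of centriole duplication, went from 1100 to 5.093, 2.844 and 3.262, and TTK, the checkpoint kinase MPS1, from 1059 to 9.025, 5.588 and 3.672. In all of these, the 3 treated libraries held below 10 scaled fragments each. ESCO2, which acetylates cohesin, went from 916.2 to 4.011, 5.151 and 2.59, BRCA2 from 903.1 to 9.501, 3.863 and 6.475, FAM111B, a protease, from 1722 to 9.025, 3.863 and 9.065, and SHCBP1 from 1299 to 10.03, 5.151 and 3.885. The read-through entry PALM2-AKAP2 was uneven, at 63.38, 0.002373 and 6.962 against 987.2 (adjusted p = 0.0214), and is uncertain for the overlap of its genes.

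Chromatin and lamina genes linked to the senescent state fell in 10 of 11 cases. MKI67, the proliferation antigen Ki-67, went from 17360 to 77.21, 117.2 and 97.12 (log2 -7.49, SE 0.26, adjusted p = 5.98e-09). LMNB1, lamin B1, went from 6740 to 191.6, 229 and 306.7 (-4.82), and HMGB2 from 3970 to 573.6, 464.9 and 542.6 (-2.92). HMGB1, LMNB2 and H2AFX fell as well, at log2 -1.77, -1.46 and -3.12. After removal of the trend MKI67, HMGB1 and H2AFX stood at -6.80, -0.93 and -4.15. LMNA, the A-type lamin, rose from 6699 to 14440, 14630 and 13760 (log2 1.09). Replication-dependent histone genes have mRNAs that mostly lack a poly(A) tail and are poorly captured by poly(A) selection. They fell in 5 of 11 tested cases (45.5%, against 31.6% of all tested genes), and none rose. HIST1H2AC went from 445.9 to 134.4, 112 and 111.4 (-1.90).

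Genes of protein synthesis and respiration, most of them short, were higher in the treated libraries. Of 77 cytosolic ribosomal protein genes 74 rose and none fell (median log2 1.07), and their share of all scaled fragments went from 5.11% to 10.4%, 9.09% and 9.46%. Their median spliced length was 1170 nt, against 3368 nt over all tested genes, and with the length and GC trend removed 40 rose and 1 fell (median 0.50). RPS20 went from 14390 to 36170, 38200 and 41610 (log2 1.42, and 1.24 with the trend removed), and RPS19 from 10860 to 48240, 34380 and 36560 (1.85, and 1.28). Many ribosomal protein genes have processed pseudogenes that can take up fragments, so single values are uncertain. Of 74 mitochondrial ribosomal protein genes 50 rose and 1 fell (67.6% and 1.35%, against 26.9% and 31.6% of all tested genes), with a median of 0.76. With the trend removed 19 rose and 6 fell (median 0.11), where 21.7% of all genes were called higher and 27.6% lower. MRPL27 stood at 1.69 and at 1.67 with the trend removed, while MRPS24 stood at 1.05 and then at -0.08 (adjusted p = 0.588).

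Respiratory chain genes showed the same dependence. Of 73 oxidative phosphorylation genes 55 rose and 1 fell (75.3% and 1.37%, against 26.9% and 31.6% of all tested genes), with a median of log2 0.74. With the trend removed 28 rose and 3 fell (median 0.22), where 21.7% of all genes were called higher and 27.6% lower. NDUFA13, of complex I, went from 895.8 to 3272, 3161 and 3220 (log2 1.84, then 0.70), COX7A2, of complex IV, from 1245 to 2993, 2736 and 2963 (1.22, then 0.78), and NDUFS8 from 1284 to 2830, 3271 and 2872 (1.22, then -0.01). NDUFS1, whose annotated transcript is long, read 1050, 873.1 and 941.4 against 1647 (-0.79, then 0.14). Proteasome genes rose in 17 of 30 cases and fell in 1 (56.7% and 3.33%, against the same 26.9% and 31.6%), with a median of 0.38. With the trend removed 8 rose and 3 fell (median 0.07), against the same 21.7% and 27.6% of all genes. PSMD8 stood at 1.06 and then 0.30, and PSMB6 at 0.79 and then -0.16 (adjusted p = 0.276). Of 37 translation factors 13 rose (35.1%, against 26.9% of all tested genes) and 5 fell (13.5%, against 31.6%), and 12 and 4 did with the trend removed. EIF4G2, an initiation factor of the eIF4G family, fell from 23460 to 9248, 8076 and 7342 (log2 -1.52, then -1.08), and EIF3H rose from 6900 to 11300, 11480 and 11210 (0.72, then 1.24).

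Splicing factors mostly fell, with 31 of 49 lower (63.3%, against 31.6% of all tested genes) and 2 higher (4.08%, against 26.9%), at a median of log2 -0.50. With the trend removed 21 were lower and 4 higher (median -0.31), where 27.6% of all genes were called lower and 21.7% higher. MBNL1, a regulator of alternative splicing, went from 3084 to 430.4, 258.8 and 346.2 (log2 -3.19, then -2.32), and QKI from 5063 to 1129, 871.9 and 953.1 (-2.37, then -1.34). SRSF2, an SR protein, read 2701, 1990 and 1999 against 5461 (-1.31, then -1.24), and HNRNPR moved from -1.15 to -0.08 (adjusted p = 0.657). SRSF5 rose by log2 0.71.

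**Figure D4:**
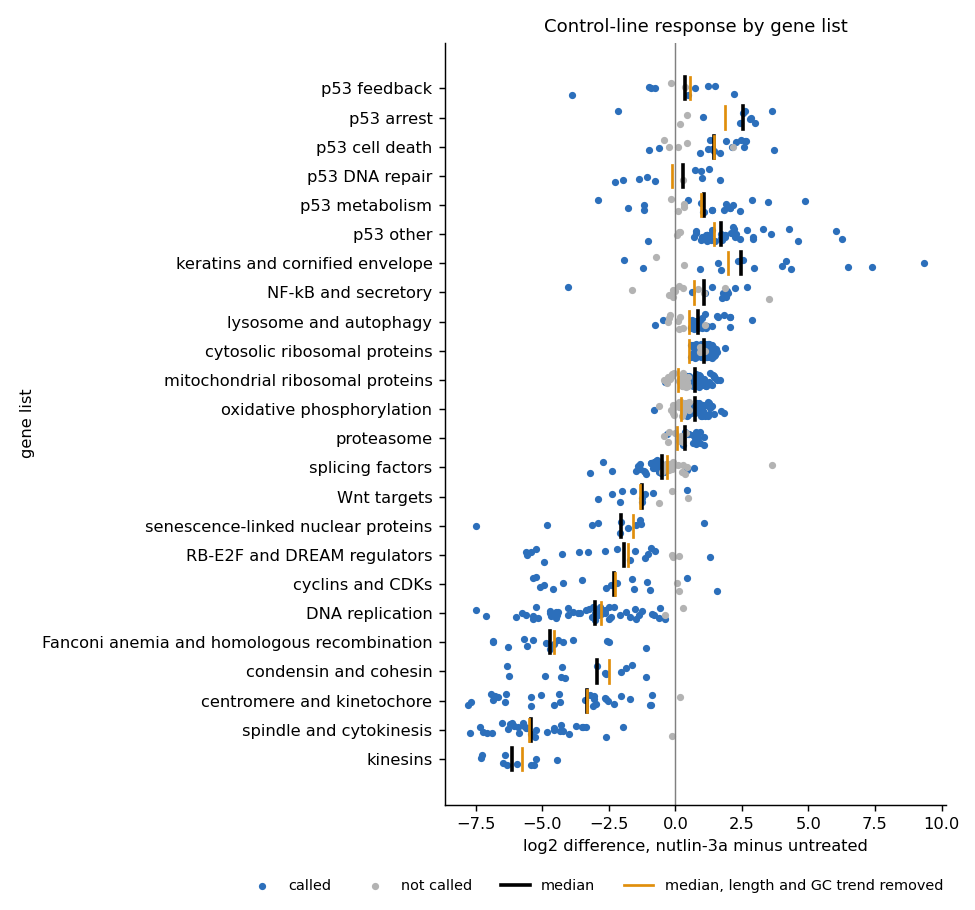
Log2 difference between nutlin-3a and untreated (horizontal axis) of each tested gene in 24 lists (vertical axis), blue where called at an adjusted p of 0.05 and grey where not, with the list median (black bar) and the median after removal of the length and GC trend (orange bar). Kinesins (-6.14) and spindle genes (-5.42) have the lowest medians and arrest targets (2.53) the highest, and the bars part most visibly for lists of short genes such as ribosomal proteins.

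Lysosomal genes rose in 24 of 34 cases and fell in 2 (70.6% and 5.88%, against 26.9% and 31.6% of all tested genes), with a median of log2 0.86. With the trend removed 15 rose and 2 fell (median 0.51), where 21.7% of all genes were called higher and 27.6% lower. Besides FUCA1 and DRAM1, which also stand on the p53 lists, CTSL, a cathepsin, went from 2669 to 9675, 11600 and 12150 (log2 2.05, then 1.60), CTSD from 5033 to 13320, 13570 and 12350 (1.38, then 0.55), and the membrane protein CD63 from 7898 to 25210, 29470 and 29190 (1.82, then 0.96). GLA, a galactosidase, fell by 0.76 on the log2 scale.

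Secretory and NF-kB genes rose in 10 of 22 tested cases (45.5%, against 26.9% of all tested genes) and fell in 1 (median log2 1.08, and 0.71 with the trend removed, where 9 rose and 1 fell), with 2 of the 22 below 10 untreated. The colony stimulating factor gene CSF1 went from 547.3 to 2619, 2777 and 2349 (2.23), IL11 from 150.8 to 545.5, 521.6 and 518 (adjusted p = 3.08e-05), and LIF, a cytokine known as a p53 target, from 2012 to 5054, 5445 and 5249 (1.38). RELB and the inhibitor gene NFKBIE rose by log2 1.93 and 1.97, and stood at 1.14 and 1.34 with the trend removed. REL, another NF-kB subunit, went sharply down, from 556.7 to 40.81, 19.46 and 45.43 (log2 -4.03, SE 0.36, adjusted p = 1.96e-06, and -2.99 with the trend removed). Of 22 interferon response genes 4 were called higher (18.2%, against 26.9% of all tested genes), 2 lower (9.09%, against 31.6%) and 16 were not called, while with the trend removed 3 were higher and 1 lower. ISG15 rose from 177.3 to 1450, 1059 and 1028 (log2 2.71, then 1.48 with the trend removed), while OAS3 fell from 590.3 to 105.3, 95.3 and 117.8 (-2.47).

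Signalling targets diverged. Wnt targets fell in 9 of 13 cases (69.2%, against 31.6% of all tested genes) and rose in 1 (7.69%, against 26.9%). Their median was log2 -1.26, and -1.32 with the trend removed. NKD1, a feedback inhibitor, went from 985.4 to 166.6, 211.8 and 187.7 (-2.39), RNF43, a ligase that removes Frizzled receptors, from 982.6 to 115.5, 126.6 and 150.5 (-2.91), and the receptor gene FZD7 from 1189 to 345.9, 279.5 and 239.6 (-2.06). The transcription factor SOX4 fell by 2.02. The exception was CCND1. Of 18 YAP and TAZ targets 5 rose (27.8%, against 26.9% of all tested genes) and 9 fell (50%, against 31.6%), with a median of -0.36. With the trend removed 4 rose and 5 fell, with a median of 0.00899. The matricellular genes CYR61 and CTGF went from 3796 to 15640, 17710 and 18720 (log2 2.19) and from 5535 to 15170, 15320 and 16970 (1.51), and ANKRD1 from 6033 to 25960, 24240 and 26270 (2.08). The phosphatase gene PTPN14 fell from 4480 to 798.8, 827.3 and 766.3 (-2.49, and -1.70 with the trend removed), and TEAD1, the DNA-binding partner of YAP, from 6343 to 2182, 1897 and 1764 (-1.71, and -0.79 with the trend removed).

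Of 19 TGF-beta targets 6 were higher and 6 lower (31.6% each, against 26.9% and 31.6% of all tested genes), with a median of log2 0.17. With the trend removed 3 were higher and 6 lower, with a median of -0.20. The ligand gene TGFB2 fell from 2590 to 914.8, 910.8 and 1024 (log2 -1.45, then -0.69 with the trend removed), THBS1, which encodes thrombospondin, from 19320 to 5182, 4496 and 4452 (-2.04, then -1.30), and SMAD6, an inhibitory SMAD, from 257.7 to 47.13, 46.36 and 49.21 (-2.41). PMEPA1, a feedback inhibitor, rose from 12060 to 23600, 24150 and 24660 (1.00). Of 29 matrix genes 5 were higher (17.2%, against 26.9% of all tested genes) and 7 lower (24.1%, against 31.6%), and with the trend removed 9 were higher and 4 lower. The integrin gene ITGB3 fell from 890.3 to 76.78, 73.98 and 75.28 (log2 -3.55) and ITGAV, its partner, from 5619 to 1717, 1264 and 1494 (-1.92, then -0.97), while ITGA3 rose from 20080 to 42920, 57580 and 52160 (1.33) and the anchoring collagen gene COL7A1 from 313.8 to 998.3, 1238 and 1185 (1.85). In the actin list 10 of 26 rose (38.5%, against 26.9%) and 8 fell (30.8%, against 31.6%), but with the trend removed 6 rose and 10 fell. ACTA2, smooth muscle actin, went from 109.5 to 1242, 1343 and 1345 (log2 3.57, SE 0.33, adjusted p = 4.07e-06; 2.87 with the trend removed), and MYH10, a nonmuscle myosin, from 3978 to 963.6, 1026 and 972.4 (-2.01, then -1.42).

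Of 28 heat shock and unfolded protein genes 9 rose (32.1%, against 26.9% of all tested genes) and 5 fell (17.9%, against 31.6%), and 10 and 3 did with the trend removed. DDIT3 (CHOP) went from 193.7 to 950.6, 731.5 and 852.1 (log2 2.11, then 1.43 with the trend removed) and ATF3 from 204.7 to 646.7, 770.1 and 788.6 (1.83), while the cytosolic chaperone gene HSP90AA1 fell by 0.68 on the log2 scale (-0.44 with the trend removed, adjusted p = 0.0531). Of 23 cholesterol synthesis genes 8 rose (34.8%, against 26.9% of all tested genes) and 6 fell (26.1%, against 31.6%), and 10 and 6 did with the trend removed. MVD, mevalonate decarboxylase, rose by log2 1.29 (0.34 with the trend removed), and SREBF1, a regulator of lipid genes, fell from 3675 to 1868, 1843 and 1441 (-1.11).

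The response of the control line was set against that of the shARVCF lines only to see which changes differed. The difference of both responses was called for 34.1% of the 13980 genes by limma, but for 13.4% with the trend removed. The knockdown lines do not share libraries with the control line, although all 3 treated control libraries come from 1 line, so the spread between control lines is not measured. MDM2 rose by log2 2.22 here and by 3.25 in the shARVCF lines (difference -1.03, SE 0.23, adjusted p = 0.00491), and with the trend removed the difference was -0.03 (adjusted p = 0.953). CDKN1A rose by 2.99 and 3.11 (difference -0.12, SE 0.30, adjusted p = 0.796). The difference was called for 101 of 171 named genes called in this line, and for 48 with the trend removed. Most named genes were chosen by their response in this line, which also enters the difference. A larger change in this line is therefore favoured by that choice. Of the 116 p53 targets 36 were called as different, and of the 86 mitosis genes 45. Among them, BUB1B and ASPM fell further in the control line: BUB1B (-7.79 against -5.30, difference adjusted p = 0.000511), ASPM (-7.73 against -5.40, adjusted p = 0.000159), and with the trend removed the differences were -2.20 (adjusted p = 0.0029) and -1.29 (adjusted p = 0.0192). RB1 (-2.19 against -0.28) and REL (-4.03 against -0.17) also fell further, by differences of -1.91 (adjusted p = 2.54e-05) and -3.86 (adjusted p = 8.02e-05), which were -1.32 and -2.84 with the trend removed.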

How the data were processed

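Total RNA was made into stranded mRNA libraries, per the labels. Per the submitters' processing notes, bcl2fastq 1.8.3, HISAT2 2.1.0 with hg38, and Cuffnorm 2.2.1 were used; for the annotation, the sources used here name none. The deposited values are a signal per gene made by the authors, estimated fragments scaled per library. They are not whole counts, so limma 3.58.1 (R 4.3.3) was fitted to log2(value + 1) with 4 group means over all 10 libraries (6 residual degrees of freedom), variance moderated with a trend and robustly, two-sided, and called at an adjusted p of 0.05. The spread of the single untreated library was taken to equal that of the other groups. The fit was tested on simulated data. Symbols were matched to GENCODE 29 (24016 by name, 661 by an older name, 1363 not at all), with length and GC from the longest basic transcript, which need not be the one measured; trends were splines with 4 degrees of freedom. Named genes were MDM2, CDKN1A, ARVCF, the 10 highest and 10 lowest changes among called genes of mean 50 or more, the 10 highest untreated levels among genes outside the filter, and up to 6 members per list by adjusted p, with members called against their list; noncoding, host, antisense and pseudogene symbols were left out of the ranked sets. Some genes taken by this rule are left unreported. Marker genes of other cell types are named beside TREM2. Members and lists were chosen with earlier results of these data known. Same-numbered shARVCF libraries come from 1 line each, and their residuals correlated (r 0.297, 0.368 and 0.375 across genes).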

Additional observations from a re-analysis of the deposited data

Results flagged for a closer look

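The nutlin-3a response of the control line was tested against that of the shARVCF lines, by limma with Benjamini-Hochberg adjustment over all tested genes. The difference was called for 101 of the 171 named genes called in the control line, against 34.1% of all tested genes. With the length and GC trend removed it was called for 48 of these named genes, against 13.4% of all genes. The 16 given here are MDM2, those among the 10 highest and the 10 lowest changes, and RB1 and REL, which were chosen after their values were seen. Most named genes were chosen by their control-line response, and the same control-line values enter the difference. A larger change in the control line is therefore favoured by that choice. Differences are control minus shARVCF, in log2(value + 1).

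MDM2, the ligase of p53, rose less in the control line, by -1.03 (adjusted p = 0.00491). Mitosis genes fell further in it: BUB1B by -2.48, ASPM by -2.33, CENPE by -2.39, MKI67 by -2.13, DLGAP5 by -1.87, KIF20A by -1.96, KIF18B by -1.82, ESPL1 by -2.16 and CKAP2L by -1.71. The adjusted p ran from 0.000159 for ASPM to 0.0181 for KIF20A. With each library's length and GC trend removed, these differences were -2.20 for BUB1B, -1.29 for ASPM, -1.41 for CENPE, -1.27 for MKI67, -1.69 for DLGAP5, -1.93 for KIF20A, -1.91 for KIF18B and -1.89 for ESPL1, all still called, and -1.21 for CKAP2L (adjusted p = 0.0721), which was not. For MDM2 the difference was then -0.03 (adjusted p = 0.953). RB1 and REL also fell further in the control line, by -1.91 (adjusted p = 2.54e-05) and -3.86 (adjusted p = 8.02e-05), and by -1.32 and -2.84 with the trend removed.

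LCE1C rose further in the control line, by 3.55 (adjusted p = 0.00118), and was listed at 0 in its untreated library, so this value depends on the pseudocount. C9orf69 differed by 6.11 (adjusted p = 0.0408), and was not called with the trend removed (adjusted p = 0.0864). In the shARVCF lines C9orf69 was present before treatment, at 131.3 ± 76.2 (SD, n = 3), against 0.2617 in the untreated control library. IPO11-LRRC70 differed by 7.37 (adjusted p = 6.13e-05) and PGBD3 by 7.27 (adjusted p = 7.71e-06). PGBD3 stood at 35.48 ± 4.65 untreated and 31.15 ± 14.0 treated in the shARVCF lines. These are read-through or overlapping entries.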

How the results depend on the processing

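With a test against a fold threshold of log2 1 in place of any difference, 1833 genes were called (595 higher, 1238 lower), the difference of responses was called for 221, and list counts fell to 45 p53 targets, 4 cytosolic and 2 mitochondrial ribosomal protein genes and 4 oxidative phosphorylation genes higher, and 4 splicing factors lower. With the length and GC trend removed, the difference of responses was called for 1849 genes, and 40 cytosolic and 19 mitochondrial ribosomal protein genes and 28 oxidative phosphorylation genes rose, while MRPS24 (-0.08), NDUFS1 (0.14), NDUFS8 (-0.01) and PSMB6 (-0.16) turned in sign. The median change of all genes was -0.05 as deposited, 0.12 with upper-quartile factors (4644 higher, 3765 lower), 0.02 with median-of-ratios factors (4123 and 4148) and -0.16 with equal totals (3263 and 4939). With each line as a replicate block, which pairs the shARVCF libraries, 8899 genes were called (4145 higher, 4754 lower), and no named call was lost. The first library series alone, with 1 control library per state and its spread taken from the shARVCF groups, called 7096 genes and lost 9 named calls (GLA, HSP90AA1, ITGAM, MDM4, MGC72080, RCHY1, SESN3, STEAP3 and ULK2), and series as a term called 7278.

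Leaving out each library in turn gave 7834 to 8239 called genes, 3578 to 3790 higher and 4256 to 4449 lower, and 4167 to 4819 for the difference of responses. List counts then ran from 80 to 83 p53 targets, 73 to 75 cytosolic and 49 to 52 mitochondrial ribosomal protein genes and 55 to 59 oxidative phosphorylation genes higher, and from 52 to 53 replication genes and 27 to 32 splicing factors lower, while the mitosis genes stayed at 84. MDM4 and ITGAM alone among named genes lost their calls there. Of 4021 named gene values under alternatives, 3932 kept direction and side of the threshold. The untreated control library could not be left out, since no other gives that state. Depth before scaling is not in the deposited values, so no counting intervals are given.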
